A study of Mus musculus with 4 samples.

Results

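Adipogenic transcription factors are the regulators that turn a precursor cell into a fat cell and then hold its lipid programme, and 10 of their genes were followed here out of 21000 protein-coding genes: Pparg, Cebpa, Cebpb, Cebpd, Ebf1, Zfp423, Srebf1, Mlxipl, Stat5a and Stat5b. The genes were chosen by their function and not by their accessibility, though with earlier results of these data known. For each gene, peaks were taken within 500 bp of every curated RefSeq start site, called its promoters, and across its locus, from 50 kb before the first start site to 50 kb past the end of the gene. Start sites of a gene less than 500 bp apart were counted as 1 promoter and numbered in the direction of transcription, which gave 20 promoters, 17 of them in the 7 genes with more than 1.

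The assay was ATAC-seq, in which a transposase inserts adapters into open chromatin so that piled-up reads mark accessible sites. The tissue was visceral fat of mice of the outbred stock CD-1, with 2 libraries in each group. The methods give 8 weeks as the age of the mice used. The founder dams were injected between embryonic days 7.5 and 13.5, with sesame oil as the vehicle for the control line and with the plasticiser bisphenol A, at 50 mg/kg, for the BPA line. The generation of the BPA animals is given differently in the labels and the methods, and their sex was not labelled. Whole tissue was used, so fewer cells of a type and a less open site in each cell cannot be told apart in any value given here.

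Adipogenesis runs as a cascade. Cebpb and Cebpd are induced first by hormonal signals, and they then raise Pparg and Cebpa, which activate each other and most genes of the mature fat cell. Zfp423 and Ebf1 act earlier, in commitment of the precursor, and Ebf1 also drives B-cell development. Stat5a and Stat5b carry signals of growth hormone and prolactin and act on Pparg. Srebf1 and Mlxipl, which encode SREBP-1 and the glucose-sensing factor ChREBP, switch on the synthesis of fatty acids. Several of these genes have alternative promoters. The most cited case is Pparg, whose upstream starts give the widely expressed form PPARG1 and whose internal start gives PPARG2, the form most restricted to fat.

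Sequences in front of 6 start sites are shown first, chosen for a contrast between promoters of a gene, for peaks in BPA libraries alone or for a motif match. They are the 250 reference bases before the start, given 5′ to 3′ on the strand of the gene, from RefSeq on GRCm38.p6, the assembly that mm10 names. CD-1 mice can differ from this reference. Capitals mark matches to the motifs searched on both strands, which are given with their names where they occur.

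Pparg has a CpG-rich first promoter and an A+T-rich internal promoter. The first holds 38 CpG dinucleotides and no motif match in these bases, the internal holds 2 CpG and 2 matches to the C/EBP motif TTGCNNAA. They lie at chr6:115360894-115361143 and chr6:115421816-115422065 on the plus strand.
Pparg first promoter: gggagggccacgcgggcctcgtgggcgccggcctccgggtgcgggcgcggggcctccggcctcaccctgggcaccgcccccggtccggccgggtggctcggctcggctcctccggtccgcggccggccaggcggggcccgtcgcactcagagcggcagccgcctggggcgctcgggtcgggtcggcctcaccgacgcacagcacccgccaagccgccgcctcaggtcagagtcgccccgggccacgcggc
Pparg internal promoter: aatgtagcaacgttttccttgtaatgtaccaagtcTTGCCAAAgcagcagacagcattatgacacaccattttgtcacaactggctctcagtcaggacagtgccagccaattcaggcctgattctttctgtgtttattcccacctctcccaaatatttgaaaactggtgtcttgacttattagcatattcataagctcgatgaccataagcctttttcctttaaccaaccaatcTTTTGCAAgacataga

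Mlxipl has an upstream start and a start 17001 bp further downstream. The upstream bases, chr5:135089640-135089889, hold the E box CACGTG and overlapping matches to the EBF motif CCCNNGGG, and those of the downstream promoter, chr5:135106641-135106890, hold the SREBP motif TCACNCCAC.
Mlxipl upstream promoter: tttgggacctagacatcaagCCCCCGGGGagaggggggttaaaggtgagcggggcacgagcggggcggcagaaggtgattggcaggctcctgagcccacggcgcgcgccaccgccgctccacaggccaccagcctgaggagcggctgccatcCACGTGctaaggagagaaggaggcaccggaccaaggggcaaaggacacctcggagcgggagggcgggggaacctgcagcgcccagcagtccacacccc
Mlxipl downstream promoter: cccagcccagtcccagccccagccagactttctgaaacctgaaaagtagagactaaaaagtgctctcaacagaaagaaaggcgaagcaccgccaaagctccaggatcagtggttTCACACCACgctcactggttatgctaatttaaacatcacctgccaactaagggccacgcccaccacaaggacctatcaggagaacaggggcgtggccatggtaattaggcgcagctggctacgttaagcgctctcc

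Ebf1 is shown at its second start, chr11:44619978-44620227, where only BPA libraries had a peak. Zfp423 is shown at its first start, chr8:87959596-87959845 on the minus strand, because with the internal promoter of Pparg it was the only promoter among those searched with a C/EBP match.
Ebf1 second promoter: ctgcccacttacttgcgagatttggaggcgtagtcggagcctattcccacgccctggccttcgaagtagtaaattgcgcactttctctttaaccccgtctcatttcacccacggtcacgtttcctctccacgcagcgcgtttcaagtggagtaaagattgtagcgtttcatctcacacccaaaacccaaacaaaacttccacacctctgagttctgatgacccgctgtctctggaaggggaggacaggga
Zfp423 first promoter: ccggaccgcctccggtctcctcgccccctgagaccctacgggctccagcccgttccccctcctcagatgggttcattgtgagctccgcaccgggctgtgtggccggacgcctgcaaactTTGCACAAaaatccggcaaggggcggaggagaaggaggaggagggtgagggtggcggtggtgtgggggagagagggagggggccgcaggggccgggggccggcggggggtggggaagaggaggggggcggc

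Over the 300 bases from 250 before to 50 after the start, 18 promoters of 9 of these genes were in the RefSeq promoter table. Cebpd was not among them. Their median G+C content was 63.8%, against 52.7% over the 32851 promoters of the table, and their median number of CpG was 17, against 7. The C/EBP motif was found in 2 of the 18 (11.1%, against 10.8% of all promoters) and the EBF motif in 6 (33.3%, against 13.7%). The E box was found in 1 (5.56%, against 7.15%) and the SREBP motif in 1 (5.56%, against 1.24%). The STAT motif TTCNNNGAA was found in 0 (against 8.3%), and a pair of AGGTCA 1 base apart, the form bound by PPARG with RXR, in 0 (against 0.0396%). The EBF motif is made of G and C apart from its free bases, and the promoters of these genes were richer in both. The part of base content in the EBF share was not tested. The EBF and SREBP matches are letters in a window and not measured binding.

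The lists held 82665 and 88911 peaks in controls and 72375 and 98060 in BPA. They give no read totals. The lowest local background behind a peak, which grows with depth, was 2.85 and 2.70 overlapping reads in controls, 1.16 in BPA 1 and 3.80 in BPA 2. BPA 1 was thus shallowest. Peaks were therefore compared by rank within their own list, by the −log10 q-value of the peak caller, as a percentage of the list. A lower percentage is a better rank, that is, a stronger peak. The smallest two-sided p-value of an exact permutation test of 2 against 2 libraries is 0.33, so the groups were not tested against each other, and a difference is set beside the spread between replicates and beside the same measure over all genes. No batch is labelled, and one that ran along with the groups cannot be told apart from them.

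A promoter peak was present in every library at 9 of the 10 genes, the exception being Ebf1. Over all coding genes this held for 57.9%. By promoter it held for 15 of 20, against 54.3% of all promoters of coding genes. At 2 promoters, the upstream start of Mlxipl and the third start of Stat5b, no library had a peak. The plot of promoter ranks shows that the strongest peaks of these genes were mostly in the BPA libraries.

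**Figure D1:**
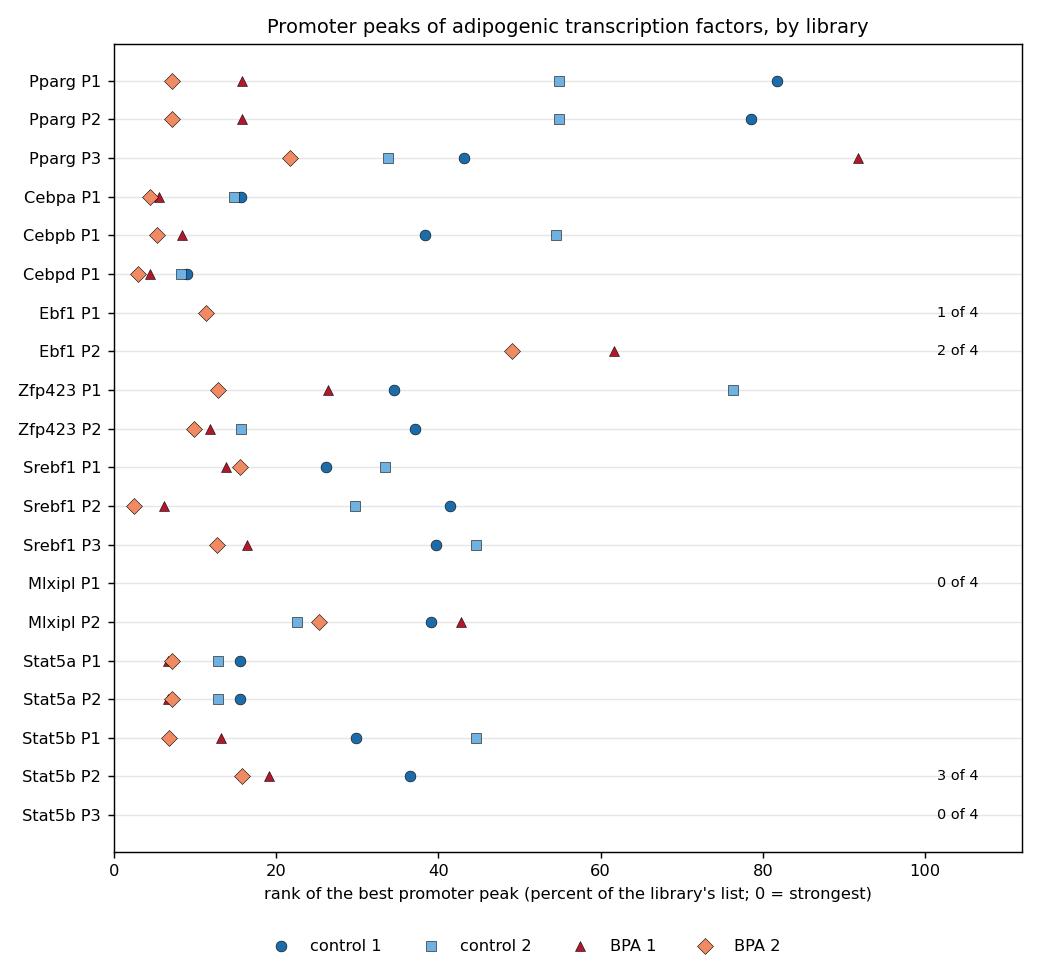
Rank of the best peak at each of 20 promoters (y axis) as a percentage of the library's own list (x axis, 0 is strongest), 1 point per library. The 2 BPA points lie left of both control points at most promoters, from Cebpd (3.01% and 4.41% against 8.31% and 9.07%) to the first promoter of Pparg, and the groups overlap at the internal promoter of Pparg and the downstream promoter of Mlxipl. The number of libraries with a peak is written where it was under 4.

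Taking the best promoter peak of each gene, both BPA ranks were better than both control ranks at 8 of the 9 genes (88.9%). This was the case at 40.7% of the 12166 coding genes with a promoter peak in every library. Both control ranks were better at 0 of the 9, against 18.7% of coding genes. The difference between the BPA mean and the control mean had a median of -14.2 percentage points over the 9 genes, against -1.84 over all coding genes. The size of this median depended on the ranking. It was -6.33 points when peaks were ranked by pile-up (-1.24 over coding genes) and -26.1 when ranked among promoter peaks (-2.55).

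Part of this gap was shared by genes with control peaks of like rank. The control means of the 9 genes lay between 8.69% and 46.4%. Among the 5410 coding genes with a control mean in that range, both BPA ranks were better at 55.4%, and the median difference was -7.02 points. That comparison was added after the ranks had been seen. The libraries differed at coding genes as a whole as well. The median fold of the best promoter peak over local background was 6.24 and 7.02 in controls and 10.9 and 9.99 in BPA. For the 9 genes it was 3.75 and 4.43 in controls and 7.83 and 6.88 in BPA, below the coding genes in every library.

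**Figure D2:**
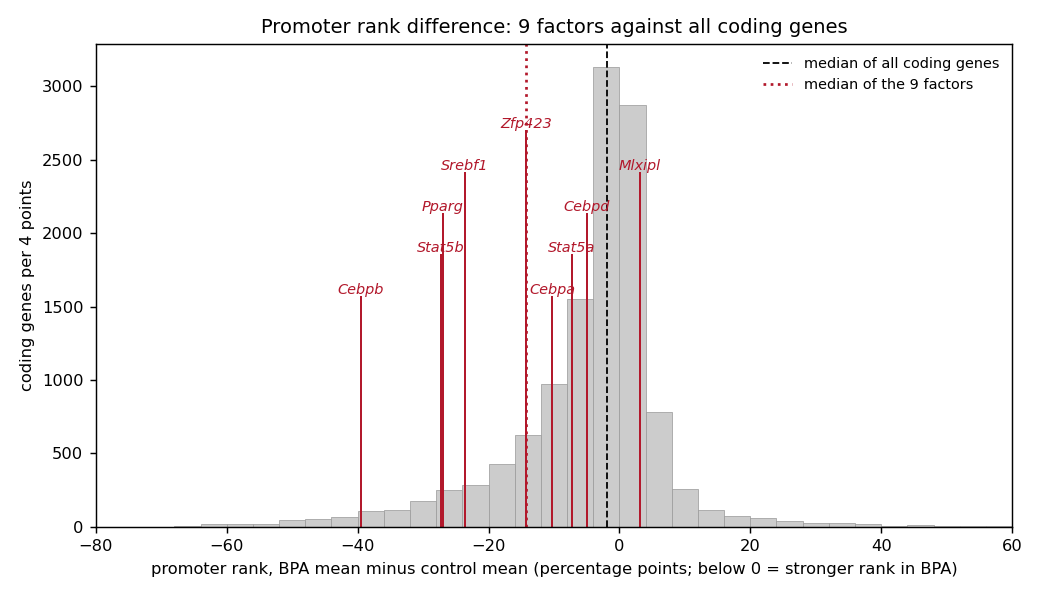
Number of coding genes (grey bars, y axis) by the difference in promoter rank, BPA mean minus control mean, in bins of 4 percentage points (x axis), over 12166 coding genes with a promoter peak in every library. Red lines mark the 9 adipogenic factors at their own difference, from -39.5 for Cebpb to 3.17 for Mlxipl, and the dashed and dotted lines mark the medians of -1.84 and -14.2.

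Cebpb and Cebpd, the early C/EBP factors, each have a single promoter. At Cebpb (start at 167688915 on chromosome 2, plus strand) the peak ranked at 38.4% in control 1 and 54.5% in control 2, and at 8.44% in BPA 1 and 5.31% in BPA 2. The BPA ranks were far better than both control ranks, and by this ranking the difference was the largest of the 9 genes. By pile-up it was -19.2 points, behind -24.5 at Stat5b, and among promoter peaks it was -46.9, behind -48.4 at Srebf1. Controls averaged 46.4% ± 11.4 (SD, n = 2), and BPA libraries 6.88% ± 2.21 (SD, n = 2). A difference of BPA from control at or below the -39.5 points of Cebpb was found at 1.96% of coding genes. The peak was also wider, at 610 bp and 625 bp in controls against 2196 bp and 2190 bp in BPA. The summit lay between 20 bp before and 167 bp after the start in all 4 libraries.

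At Cebpd (start at 15887286 on chromosome 16, plus strand) the peak ranked at 9.07% and 8.31% in controls, and at 4.41% in BPA 1 and 3.01% in BPA 2. It was the strongest promoter of these genes in control libraries, and the groups did not overlap. The difference of -4.98 points was larger than the SD of either group, 0.541 and 0.988, but 34.9% of coding genes had a difference as low or lower. Width did not separate the groups, at 1887 bp and 1167 bp in controls and 1446 bp and 1487 bp in BPA.

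Cebpa, which closes the cascade together with Pparg, has 1 promoter (start at 35119293 on chromosome 7, plus strand). Its peak ranked at 15.7% in control 1 and 14.9% in control 2, and at 5.54% in BPA 1 and 4.42% in BPA 2. Replicates were close to each other, with SDs of 0.607 and 0.793, and the BPA mean was lower by more than either, a difference of -10.3 points. The peak measured 1339 bp and 1354 bp in controls against 2474 bp and 2844 bp in BPA. Its summit lay 362 bp and 71 bp before the start in controls, 87 bp in BPA 1 and 509 bp in BPA 2. Judged by the summit, BPA 2 thus had no peak within 500 bp of this start. The best peak was wider in both BPA libraries than in both controls at 6 of the 9 genes (66.7%), against 21.9% of coding genes.

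Pparg, the nuclear receptor at the centre of fat cell identity, has 3 promoters, and they did not move alike. At the first promoter (starts from 115360951 to 115361144 on chromosome 6, plus strand) the peak ranked at 81.8% in control 1 and 54.9% in control 2, and at 15.8% in BPA 1 and 7.16% in BPA 2. The control peaks were among the weaker peaks of their lists, with folds of 2.72 and 3.49, and those of BPA had folds of 6.75 and 6.88. The means were 68.3% ± 19.0 (SD, n = 2) and 11.5% ± 6.10 (SD, n = 2). The second promoter, 1398 bp downstream, took part of its values from the same peaks, and gave 78.6%, 54.9%, 15.8% and 7.16%.

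The internal promoter of Pparg, 61115 bp downstream, whose transcript in RefSeq is that of PPARG2, showed no such split. It ranked at 43.2% in control 1 and 33.8% in control 2, and at 91.8% in BPA 1 and 21.7% in BPA 2. The BPA libraries enclosed both controls, with BPA 1 worst and BPA 2 best, and the BPA SD was 49.6 points. Part of that spread was set by the window, since BPA 1 had a better peak, at 77.4%, in the same merged region but outside 500 bp. In BPA 2 the peak was 1348 bp wide with its summit 894 bp upstream of the start, so by the summit BPA 2 had none within 500 bp. In the other libraries the peak measured 420 to 505 bp with the summit 40 to 134 bp upstream. So in controls the best promoter peak of Pparg was at the internal start, whose bases printed above hold the 2 C/EBP matches, and in BPA it was at the CpG-rich first start. The gene-level difference of -27.0 points therefore compares different promoters.

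Zfp423, a zinc finger factor of precursor commitment, has a first promoter (start at 87959595 on chromosome 8, minus strand) and a second, 155156 bp downstream. The first ranked at 34.5% in control 1 and 76.3% in control 2, and at 26.4% in BPA 1 and 12.8% in BPA 2. Both BPA ranks were better, but the controls were far apart, with an SD of 29.6 points. Part of that spread was set by the window, since control 2 had a better peak, at 42.8%, in the same merged region but outside 500 bp. The summit of the peak in the window lay 363 to 809 bp inside the gene in every library. The second ranked at 37.1%, 15.7%, 11.9% and 9.86% in the same order. Its difference of -15.5 points was close to the control SD of 15.1. The gene-level difference took the first promoter in control 1 and the second in the other libraries, and so compares different promoters. It shrank from -14.2 to -4.81 points without control 1.

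Ebf1 was the gene without a promoter peak in every library. At its first start (44618100 on chromosome 11, plus strand) only BPA 2 had a peak within 500 bp, at 11.4%. The other libraries had a peak just outside the window, 651 bp from the start in control 1, 628 bp in control 2 and 527 bp in BPA 1, at ranks of 47.9%, 20.9% and 9.74%. The absence there was therefore set by the window: all 4 libraries had this upstream site, and both BPA ranks were better. At the second start, 2128 bp downstream, the controls had no peak, with the nearest 2779 bp and 2756 bp away. BPA 1 had 1 at 61.7% and BPA 2 at 49.1%, with folds of 2.87 and 2.26, both low. Ebf1 was thus the 1 gene of the 10 whose promoters had a peak in each BPA library but in no control, which held for 2.51% of coding genes, and its second start the 1 promoter of 20, against 2.86% of promoters.

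Stat5a and Stat5b lie head to head on chromosome 11. The 2 promoters of Stat5a (starts from 100859351 and at 100860484, plus strand) had the same best peak in every library. It ranked at 15.6% in control 1 and 12.8% in control 2, and at 6.62% in BPA 1 and 7.22% in BPA 2. The groups did not overlap, with a difference of -7.27 points against SDs of 1.98 and 0.424. The summit lay 64 to 117 bp before the second promoter's start and 711 to 764 bp after the nearest start of the first. Folds were 4.94 and 6.22 in controls, and 9.91 and 7.70 in BPA. In control 2 a separate, weaker peak covered a start of the first promoter, at 48.6% with a fold of 3.58.

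Stat5b (first start at 100850581, minus strand) ranked at 29.9% and 44.6% in controls, and at 13.2% in BPA 1 and 6.79% in BPA 2. The difference was -27.3 points against SDs of 10.4 and 4.51, and 5.55% of coding genes had a difference as low or lower. Its second start, 28011 bp downstream, had a peak at 36.4% in control 1, at 19.1% in BPA 1 and at 15.8% in BPA 2. It had none in control 2, where the nearest peak was 6164 bp away. At the third start, 37211 bp from the first, the nearest peaks were 1007 to 1195 bp away.

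The lipogenic factors differed from each other. Srebf1 has 3 promoters (first start at 60222581 on chromosome 11, minus strand), each with a peak in every library and with both BPA ranks better. The first ranked at 26.2% and 33.5% in controls, and at 13.9% in BPA 1 and 15.5% in BPA 2. The second, 1954 bp downstream, ranked at 41.5%, 29.8%, 6.14% and 2.50% in the same order. The third, 12110 bp downstream, ranked at 39.7%, 44.6%, 16.4% and 12.7%. The second was the best of the 3 in both BPA libraries, with folds of 9.59 and 9.64, and in control 2, and the first was the best in control 1. The gene-level difference was -23.6 points against SDs of 2.54 and 2.57.

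Mlxipl was the 1 gene of the 9 whose groups overlapped. At the downstream promoter (start at 135106891 on chromosome 5, plus strand) the peak ranked at 39.1% in control 1 and 22.6% in control 2, and at 42.8% in BPA 1 and 25.3% in BPA 2. The replicates of each group were further apart than the groups, with SDs of 11.7 and 12.4 and a difference of 3.17 points. The summit lay 119 bp and 73 bp before the start in controls but 1409 bp and 1212 bp after it in BPA, where the peaks measured 1898 bp and 2955 bp. Judged by the summit, the BPA libraries thus had no peak within 500 bp of this start. At the upstream start, with the E box printed above, the nearest peak was 11184 to 11318 bp away in every library.

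Across the loci of the 10 genes, 261 regions with a peak in some library were found after merging overlapping peaks, in 1899.9 kb when the overlap of the Stat5a and Stat5b loci is counted once. Control 1 had a peak in 123 of them, control 2 in 142, BPA 1 in 166 and BPA 2 in 219. BPA 1, with the shortest list and the lowest background, held more of these regions than either control. The density was 13.7 regions per 100 kb, against a median of 8.44 over the loci of all coding genes (quartiles 4.44 and 11.6). By gene it ran from 8.77 for Mlxipl and 8.80 for Cebpd to 17.7 for Cebpb.

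Of the 261 regions, 87 were present in every library (33.3%, against 26.3% of the 147157 merged regions of the genome). Both BPA libraries and neither control had 33 of them (12.6%, against 9.4%), and both controls and neither BPA library had 3 (1.15%, against 5.33%). Away from promoters there were 32 BPA-only regions of 232 (13.8%, against 10.0%) and 3 control-only regions (1.29%, against 5.86%). Of the 261, a further 86 (33.0%) were found in 1 library, a class that was not counted over the genome. The share of BPA-only regions was thus not far from that of the genome, and the scarcity of control-only regions was the larger departure. The map of the loci shows where they lie.

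**Figure D3:**
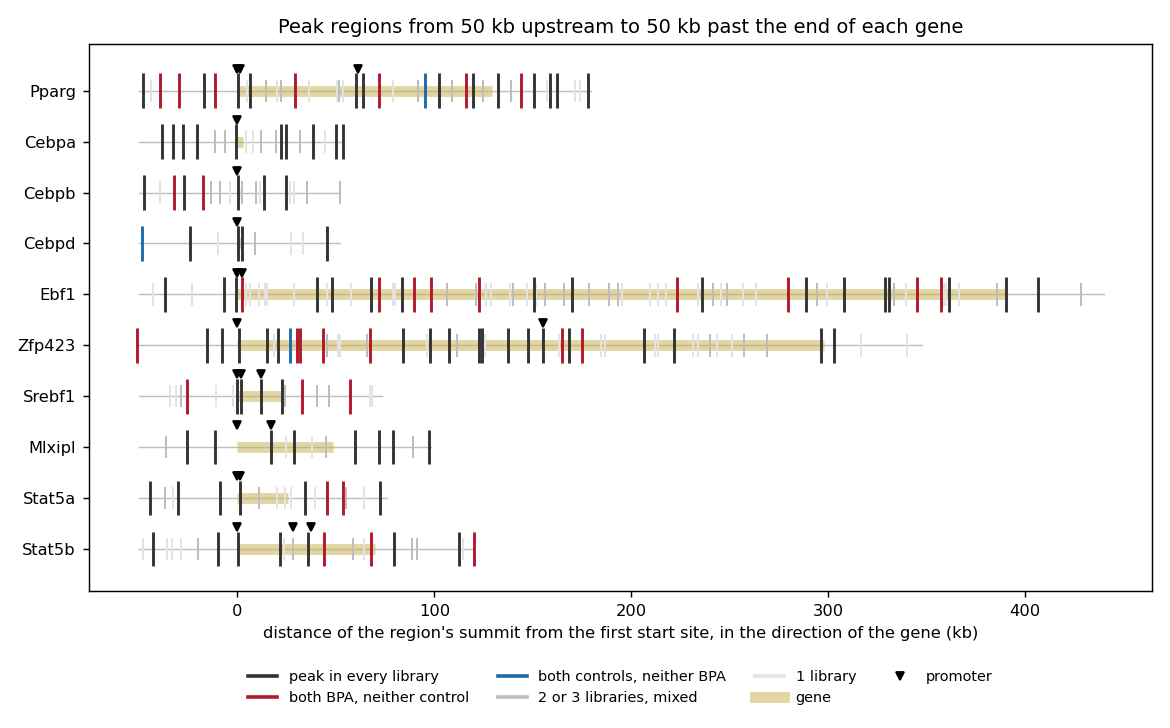
Summits of the peak regions in the locus of each gene (rows) by distance from the first start site in kb (x axis), in the direction of transcription. Tall bars are regions of every library (black), of both BPA libraries only (red) and of both controls only (blue), short bars are the rest, the thick band is the gene and triangles are promoters. Red bars are spread through Ebf1 (9), Pparg (7) and Zfp423 (7), and blue bars occur once each at Pparg, Cebpd and Zfp423.

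Among the 63 distal regions present in every library, both BPA ranks were better at 23 (36.5%, against 21.6% of such regions in the genome) and both control ranks at 7 (11.1%, against 31.8%). The distal regions of these loci thus leaned the same way as their promoters, whereas those of the genome leaned toward the controls. At Pparg these counts were 5 and 0 of 11, at Zfp423 5 and 1 of 16, at Ebf1 6 and 3 of 16 and at Cebpa 4 and 3 of 9.

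Pparg had 7 BPA-only regions and 1 control-only region. The best BPA-only region, chr6:115432393-115433254 in intron 2, lay 10830 bp downstream of the PPARG2 start and ranked at 15.6% in BPA 1 and 19.3% in BPA 2, with folds of 11.1 and 6.67. The next, chr6:115330979-115331692, was intergenic, 29780 bp upstream of the first start, at 45.3% and 26.03%. The next after it, chr6:115389683-115390702 in intron 2, ranked at 55.2% and 32.3%. The control-only region, chr6:115455968-115456536 in intron 5, was among the weakest peaks of both control lists, at 98.2% and 86.4%. The 151 reference bases around the summit of the best BPA-only region, chr6:115432821-115432971, held no match to the motifs searched.
Pparg intron 2 region, plus strand: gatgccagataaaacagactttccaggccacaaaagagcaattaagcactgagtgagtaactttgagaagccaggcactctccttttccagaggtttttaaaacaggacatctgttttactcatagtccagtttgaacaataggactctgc

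The leading distal regions of Pparg present in every library were chr6:115510935-115512161, at 32.6% and 24.2% in controls and 38.0% and 32.6% in BPA, and chr6:115522751-115523934, at 41.9%, 26.9%, 29.0% and 22.4%, both past the end of the gene. The groups overlapped at both. At chr6:115462440-115463734, with its summit in an exon of Pparg, the ranks were 20.5% and 43.7% in controls and 10.2% and 9.18% in BPA, and there the groups did not overlap.

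At Cebpb, 2 distal regions were BPA-only. The better, chr2:167670993-167671963, was intergenic, 17575 bp upstream of the start, and ranked at 25.2% in BPA 1 and 23.3% in BPA 2. The other, chr2:167656611-167657115, lay in intron 1 of Tmem189, at 40.8% and 14.2%. The 151 bases around the summit of the better one, chr2:167671265-167671415, held 1 match to the STAT motif, in capitals.
Cebpb upstream region, plus strand: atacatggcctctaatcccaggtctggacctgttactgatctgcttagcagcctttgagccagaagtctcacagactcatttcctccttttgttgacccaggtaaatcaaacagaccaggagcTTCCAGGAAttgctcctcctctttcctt

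Of the 3 distal regions at Cebpb present in every library, those at chr2:167713208-167714437 (26.4% and 30.99% in controls, 49.1% and 30.4% in BPA) and chr2:167701711-167702542 (52.1%, 27.6%, 39.9% and 53.8%) overlapped between groups. The BPA ranks were better at chr2:167640511-167641990, at 71.5% and 59.3% against 56.0% and 24.7%.

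Cebpd had the best-ranked control-only region of these loci. It was chr16:15838390-15839315, 48601 bp upstream of the start and in intron 84 of Prkdc, a DNA repair kinase gene, at 30.4% in control 1 and 21.7% in control 2. No motif searched was found in the 151 bases around its summit, chr16:15838610-15838760.
Cebpd upstream region, plus strand: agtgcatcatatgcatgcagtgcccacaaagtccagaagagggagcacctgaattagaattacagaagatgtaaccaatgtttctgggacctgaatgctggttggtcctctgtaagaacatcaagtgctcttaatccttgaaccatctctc

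The locus of Cebpd had 9 regions in all, the fewest of the 10, and no BPA-only region. Its 2 distal regions present in every library, chr16:15888953-15890909 and chr16:15931375-15933085, lay in an exon and an intron of Spidr, the first 2432 bp from the Cebpd start. They ranked at 44.9%, 19.1%, 31.2% and 28.4%, and at 19.7%, 60.8%, 54.99% and 52.8%, in control 1, control 2, BPA 1 and BPA 2, and the groups overlapped at both.

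Cebpa had no region of 1 group alone, and 10 of its 18 regions (55.6%, against 26.3% over the genome) were in every library. The intergenic region chr7:35080656-35081839, 38251 bp upstream, ranked at 12.8% and 23.5% in controls and 7.44% and 8.11% in BPA. On the other side, chr7:35156338-35158034, 38354 bp downstream, ranked at 20.7% and 7.86% in controls and 30.6% and 25.7% in BPA. These flanking sites thus went opposite ways, while the third, chr7:35086122-35087078, followed the first at 31.6% and 31.7% against 21.5% and 14.1%.

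Ebf1, the longest gene of the set, had 71 regions, 9 of them BPA-only and 0 control-only, and 31 in 1 library. The leading BPA-only regions were all in its introns: chr11:44974972-44975742 in intron 11 at 30.0% and 25.3%, chr11:44962479-44963857 in intron 10 at 34.3% and 17.4%, and chr11:44897062-44897840 in intron 8 at 43.7% and 46.2%. Of the leading distal regions in every library, chr11:44948381-44949485 in intron 10 overlapped between groups at 27.0%, 18.6%, 33.7% and 26.5%. The BPA ranks were slightly better at chr11:44581029-44581683 (28.3% and 37.9% against 27.9% and 25.1%) and at chr11:44924858-44927228 (47.9% and 46.8% against 44.9% and 23.9%). Those gaps between the groups were narrower than the distance between the BPA replicates.

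Zfp423 had 7 BPA-only regions and 1 control-only region among 50. The best, chr8:88009432-88010854, lay at the very edge of the locus, 51055 bp upstream of the first start, at 38.3% and 21.0%. The others named, chr8:87794085-87794989 in intron 3 and chr8:87891052-87892482 in intron 2, ranked at 40.0% and 47.5%, and at 48.1% and 36.0%. The control-only region, chr8:87932826-87933363 in intron 1, ranked at 90.8% and 39.6%. Of the leading distal regions in every library, BPA ranks were better at chr8:87656102-87657537 (25.1% and 20.9% against 20.6% and 14.7%) and at chr8:87974068-87975969 (34.1% and 21.9% against 18.8% and 16.8%). The groups overlapped at chr8:87811559-87812827 (29.8%, 30.8%, 36.0% and 29.9%).

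Srebf1 had 3 BPA-only regions, none in the gene itself. The best, chr11:60189382-60190447, had its summit in an exon of the neighbouring gene Rai1, 32885 bp downstream of the first start, and ranked at 20.7% and 15.5%. The others, chr11:60248107-60248967 in Tom1l2 and chr11:60164299-60165444 in Rai1, were weak in BPA 1, at 94.2% and 97.7%, and ranked at 75.8% and 53.2% in BPA 2. The locus had 0 distal regions in every library. Of its 4 regions in every library, 3 were at its own promoters. The other was at the promoter of Mir6921, with its summit in an exon of Srebf1.

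Mlxipl had 13 regions, 8 of them (61.5%, against 26.3% over the genome) in every library and none of 1 group alone. Its 2 distal regions in every library, chr5:135160987-135163015 in an exon of Tbl2 and chr5:135118424-135119182 in intron 2 of Mlxipl, ranked at 22.9%, 25.999%, 24.3% and 19.8%, and at 31.5%, 64.7%, 60.1% and 23.5%. Both overlapped between groups.

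Stat5a had 2 BPA-only regions, both in Stat3, the gene next to it. These were chr11:100904700-100905213 at 61.1% and 61.2%, and chr11:100912565-100913278 at 82.9% and 77.7%, both in the weaker part of the lists. Stat5b had 3, of which chr11:100805399-100807119 in its intron 2 ranked at 62.3% and 23.9%, chr11:100781918-100782874 in an exon at 66.7% and 43.7%, and chr11:100730222-100731174 in Rab5c at 55.9% and 29.7%. Of the regions in every library, the loci of both genes shared chr11:100893157-100894323 in Stat3 (33.1% and 39.8% against 20.6% and 22.1%) and chr11:100814377-100815568 in intron 1 of Stat5b (68.3% and 54.0% against 37.7% and 20.03%), where BPA ranks were better. The groups overlapped at chr11:100931403-100932153 (38.5%, 34.3%, 57.4% and 28.7%) and at chr11:100828734-100830106 (68.4%, 52.1%, 68.6% and 50.3%).

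Other genes of adipogenesis were counted from lists of known regulators. Of 22 factors that promote adipogenesis, such as KLF factors, nuclear receptor coactivators and RXR genes, 20 had a promoter peak in every library, against 57.9% of coding genes. Both BPA ranks were better at 11 of those, against 40.7% of coding genes, and both control ranks at 1, Egr2, against 18.7%. The median difference was -5.91 points. Prdm16 lacked a peak in control 1 and Ppargc1a, a coactivator of mitochondrial genes, lacked 1 in BPA 1. Of 15 factors that restrain adipogenesis, 12 had a peak in every library, with 5 better in BPA, among them Gata2, Foxo1, Foxc2 and Ncor1, 0 better in controls and a median of -3.13 points. The 5 of 12 were close to the 40.7% of coding genes. Dlk1, the precursor marker Pref-1, had no peak in any library, Wnt10b had 1 in BPA 2 and Nr2f2 in 3 libraries.

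The relatives of the 10 factors gave 9 of 12 in every library, against 57.9% of coding genes. Of these, 3 were better in BPA (Ppard, Mlx and Mlxip) and 1 in controls (Stat2), against 18.7% of coding genes. The median was -2.38 points. The 3 of 9 lay below the 40.7% of coding genes. Cebpe, Ebf4 and Stat4 had a peak in 1, 2 and 2 libraries. Of 14 partners and upstream genes of SREBP and STAT5, 13 had a peak in every library, against 57.9% of coding genes. Of these, 6 were better in BPA and 0 in controls, against 18.7% of coding genes, and the median was -2.44 points. The 6 of 13 were again near the 40.7%. Lepr, the leptin receptor, had none. The medians of all 4 lists lay below the -1.84 points of coding genes.

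**Figure D4:**
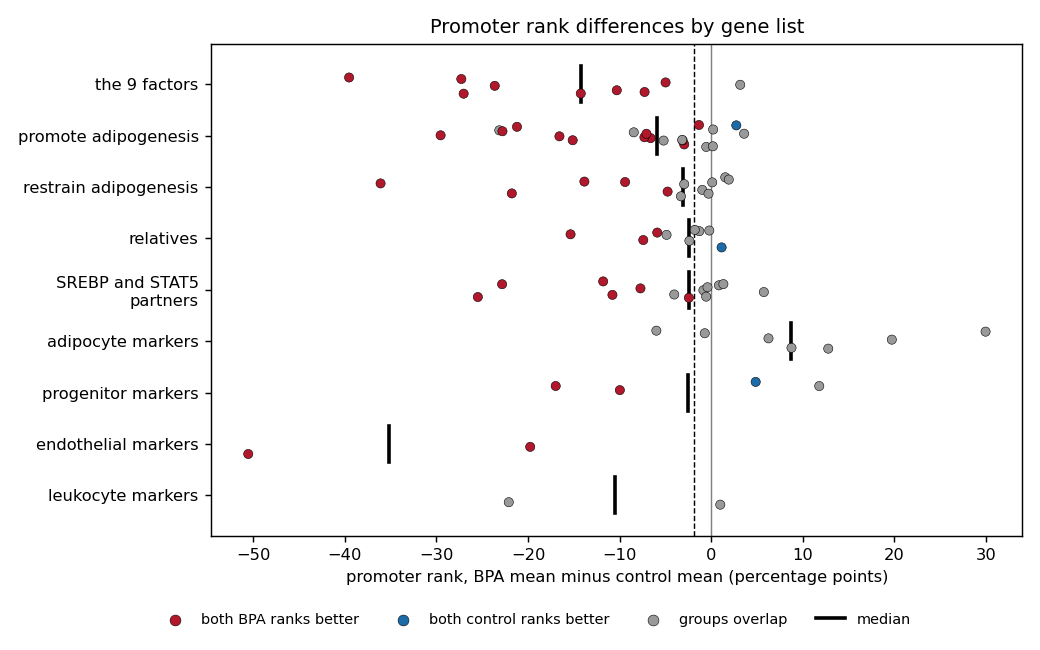
Promoter rank difference, BPA mean minus control mean in percentage points (x axis), for each gene with a promoter peak in every library, by gene list (rows). Red points have both BPA ranks better, blue both control ranks better, grey points overlap, black bars are medians and the dashed line is the median of all coding genes, -1.84. The 9 factors have a median of -14.2, adipocyte markers of 8.77 and endothelial markers, of which 2 had a peak in every library, of -35.2.

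Of the marker lists for cells of the tissue, the endothelial list differed most between the groups, both in the number of genes with a peak and in median rank. All 7 adipocyte markers (Adipoq, Plin1, Cidec, Lep, Fabp4, Lipe and Plin4) had a promoter peak in every library, against 57.9% of coding genes. Of these, 0 separated the groups, against 40.7% of coding genes with both BPA ranks better and 18.7% with both control ranks better. Their median difference was 8.77 points, but control replicates were far apart, with SDs of 27.1 at Adipoq, 36.6 at Plin1 and 21.5 at Fabp4. Lipe at -5.99 and Lep at -0.701 points had the sign of the factors, and the others were above 0. Among the 6 endothelial markers, 3 had a promoter peak in control 1, 2 in control 2 and 6 in each BPA library. Pecam1, Cdh5 and Emcn were without one in the controls and had one in each BPA library, a pattern of 2.51% of coding genes. The 2 with peaks in every library, Tek and Kdr, had better ranks in both BPA libraries, as did 40.7% of coding genes. Adipose progenitor markers numbered 4, 4, 5 and 5 of 6 in control 1, control 2, BPA 1 and BPA 2, leukocyte markers 2, 2, 3 and 3 of 6, and pericyte and smooth muscle markers 2, 2, 3 and 3 of 3. Their ranks were mixed. Of the 4 progenitor markers with a peak in every library, Pdgfra and Cd34 ranked better in both BPA libraries and Pdgfrb in both controls, and Dpp4 overlapped with a difference of 11.8 points. The 2 such leukocyte markers overlapped between groups. Of the 2 such smooth muscle markers, Acta2 overlapped with a difference of 8.58 points and Myh11 ranked better in BPA by a difference of -1.46. The part of these cell types in the ranks of the 10 factors was not tested.

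The remaining markers were few. Mesothelial markers numbered 3, 2, 2 and 1 of 4 in the same order, epithelial markers 2, 0, 1 and 1 of 3, and brown or beige adipocyte markers 2, 3, 2 and 3 of 3. The 3 hepatocyte markers, Alb, Apoa1 and Ttr, were without a promoter peak throughout. Csf1r and Cd3e of the leukocyte list had no promoter peak in any library.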

How the data were processed

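ATAC-seq was measured in 4 libraries, 2 control and 2 BPA. Per the labels and methods, the authors trimmed reads with Trim Galore, mapped them to mm10 with Bowtie2 2.3.5.1, kept uniquely mapped reads, removed duplicates and ran MACS2 2.2.7.1 separately on each library. The deposited peak lists give the fold (a ratio) over local background, the −log10 p-value and −log10 q-value, and the summit. The authors' −log10 q-values were at least 1.30 in every list.

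Pile-up and background were solved from the deposited fold and p-value, with a relative error of at most 1.36e-05. Ranks, merging of peaks sharing 1 bp, promoter windows and motif searches used pandas 2.3.3 and numpy 2.4.6 under Python 3.11.15, with scipy 1.17.1, and were checked on simulated data. Regions were placed by summit, with introns of the longest curated transcript. Within each locus, the named regions were up to 3 of 1 group alone and up to 3 distal ones in every library, by their worse rank. A gene of a list was named where its promoter lacked a peak in some library or where 5 or fewer genes shared its class; some are not reported here. The first and internal promoters of Pparg and both of Mlxipl were printed, and for Pparg a region too, where the rule asked for 1 window per gene. The genes, lists and rules were chosen with earlier results of these data known. The list of BPA 2 carries another replicate number than its label. The study's text counts 4 mice for these 4 libraries, and the labels name no animals. Peaks past chromosome ends numbered 0.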

Additional observations from a re-analysis of the deposited data

How the results depend on the processing

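No paired analysis was possible because the values here come from no test, and no label ties libraries of the same number to a shared litter or day. Of 64 alternative values for the counts and the median difference, 47 stayed within 1.5 times the reported count or within 6.61 points of the reported median (the median over genes of the larger group SD), and 17 moved further. Of 97 values for single genes, 83 stayed within the larger group SD and 14 moved further.

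With the best 20000 peaks of each list, promoter peaks in every library fell to 3 genes and 4 promoters, and regions to 10 in every library, 1 of controls only and 12 of BPA only, since fewer peaks were counted. By the summit, 9 promoters had a peak in every library. A −log10 q of at least 5 left 55 regions in every library, and a reciprocal overlap of 50% left 51. The shares over all coding genes, promoters and merged regions were not computed under these settings. These counts therefore cannot be set against the genome. The median rank difference was -6.33 points by pile-up (-1.24 over coding genes), -26.1 among promoter peaks (-2.55) and -23.6 by the summit over 7 genes (-1.57). The cause was not tested.

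Without 1 library, genes with a promoter peak in every other library stayed at 9 and promoters at 15 to 16. Regions of every remaining library numbered 87 to 109. Control-only regions ranged from 4 to 16, with 16 without control 1, 16 without control 2 and 9 without BPA 2. BPA-only regions ranged from 44 to 84, with 55 without control 2, 84 without BPA 1 and 51 without BPA 2. Both counts rise because fewer lists are asked to agree or can overlap. The shares over the genome were not computed without a library, so the scarcity of control-only regions was not checked there. The median rank difference ranged from -19.9 to -9.88 points. It was negative at all 9 genes without control 2 or without BPA 1 and at 8 otherwise. BPA 1 was the shallowest library, so a missing peak there alone says little.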

Other observations

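Motifs were also searched in 300 bases around the summit of each region. The C/EBP motif was found in 48 of the 261 regions in the loci of the 10 factors (18.4%, against 17.5% of 147153 merged regions), the EBF motif in 39 (14.9%, against 10.5%), the STAT motif in 21 (8.05%, against 11%), the E box in 17 (6.51%, against 4.67%) and the SREBP motif in 3 (1.15%, against 1.15%). The pair of AGGTCA 1 base apart was found in 0 (against 0.0673%). Among the 33 BPA-only regions of these loci the numbers were 5 for C/EBP (15.2%, against 14.1% of the BPA-only regions of the genome), 3 for STAT (9.09%, against 10.2%), 3 for the E box (9.09%, against 4.64%) and 2 for EBF (6.06%, against 13.2%). These are descriptions of the reference sequence, with no test.

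Local background around the promoter peaks, as a multiple of the lowest background of the same library, had a median over the 9 factors of 3.62 and 2.91 in controls and of 8.39 and 11.5 in BPA. Over the coding genes with a promoter peak in every library it was 2.89, 2.66, 5.70 and 6.90. Both were higher in the BPA libraries, and in each library the factors lay above the coding genes.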
